A study of Homo sapiens with 14 samples.

Results

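The comparison is between a line of H9 cells built for inducible overexpression of CTNNB1, the gene of beta-catenin, kept without doxycycline (OE without Dox, 3 libraries), and wild type H9 cells (WT, 3 libraries). Members are the libraries that the labels give these conditions, 6 of the 14 libraries in all. H9 is an established human embryonic stem cell line, and every group was differentiated into MGE-like progenitors, where MGE is the medial ganglionic eminence, the ventral forebrain zone from which many interneurons come. All groups shared the same treatment: the TGF-beta receptor inhibitor SB431542 at 2 µM and the BMP receptor inhibitor LDN193189 at 200 nM from day 0 to day 6, SHH at 250 ng/mL with the smoothened activator purmorphamine at 0.3 µM from day 10 to day 17, and collection as neurospheres at day 25. Levels are also given for the same overexpression line induced over days 17 to 25 with 0.1 µg/mL doxycycline (OE with Dox, 3 libraries) and for cells with CTNNB1 knocked out (KO, 5 libraries). Neither OE without Dox nor WT received the drug, so their comparison holds the drug constant and differs in the cell line itself. The labels give neither the promoter, the form of CTNNB1 nor the site of the transgene, nor whether the line is 1 clone, nor whether replicates are separate differentiations. The p-values therefore measure a spread between libraries, which may be technical. The main model pooled that spread over all 14 libraries, KO and OE with Dox included.

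Beta-catenin carries canonical WNT signals to the nucleus, where it acts with TCF and LEF factors on target genes, several of which feed back on the pathway. In the developing forebrain WNT and BMP ligands pattern the dorsal side, including the cortical hem, while SHH patterns the ventral side and maintains NKX2-1, the regulator that defines the medial ganglionic eminence.

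The 6 libraries held 5402330 to 5622830 reads assigned to genes. Values are normalized counts, that is, gene read counts divided by 1 size factor per library. A gene was tested where at least 3 of the 6 libraries had a value of 10 or more, which left 15874 of 58051 genes, 15785 of them named. Differences are log2 folds of OE without Dox over WT on log2(normalized count + 1), from limma, and a gene was called at a Benjamini-Hochberg adjusted p under 0.05 over all 15874 genes. By that test 564 genes rose (3.55% of those tested) and 387 fell (2.44%). Of these, 310 rose by 2-fold or more (1.95%) and 262 fell by as much (1.65%). The fit took the libraries as unpaired, and with the replicate number as a block 685 genes rose and 512 fell. In a fit of the 6 libraries alone, 430 of the 564 and 308 of the 387 genes were still called. The median log2 fold over all tested genes was -0.03. The first principal component, with 47.7% of the variance, put the 3 OE without Dox libraries at 26.4 to 42.8 and the 3 WT libraries at -41.6 to -30.9. The second, with 21.2%, set WT replicate 1 at 45.5 apart from the other libraries, at -22.6 to 12.6. Leaving out WT replicate 1 gave 495 higher and 357 lower genes. The counts moved by over 1.5 times without OE replicate 1 (266 higher and 157 lower), without OE replicate 3 (335 and 211) and without WT replicate 3 (298 and 183). With each of the 6 libraries left out in turn, 226 of the higher and 119 of the lower genes were called every time.

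CTNNB1 itself (ENSG00000168036, chromosome 3, 41194741 to 41260096, plus strand of hg38) was at 3084, 3318 and 3633 normalized counts in OE without Dox and at 4392, 3803 and 3248 in WT. The 2 groups overlapped, with a log2 fold of -0.18 ± 0.14 (SE) and an adjusted p of 0.54 in limma. With doxycycline the same line stood at 23861 to 31290.1, and KO cells at 2090.2 to 2779. A difference in CTNNB1 mRNA was not detected between the uninduced line and WT, while 951 other genes passed the same test (5.99%). The counts cannot tell transgene reads from reads of the native gene.

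Medial ganglionic eminence regulators that passed the test were higher in the uninduced line. Of the 15 tested MGE regulators 5 rose (33.3%) and none was called lower (0%), beside 3.55% and 2.44% of all tested genes. The median log2 fold was 0.76. All OE libraries lay above all WT libraries in 8 of the 15 and below them in 2. Over all tested genes these shares were 11.7% and 11.8%. Uncalled members lay on both sides of 0, such as SIX3 at 0.78 and MAF at -0.62. LHX8, a LIM homeobox factor of cholinergic and other neurons of this region, was at 985, 379 and 855 in OE without Dox, against 37.9, 17.0 and 19.9 in WT. Every OE library lay far above every WT library, and the log2 fold was 4.81 ± 0.35 (adjusted p = 1.9e-06). In KO cells LHX8 stood at 559 to 1107, and in OE with Dox at 69.7 to 109. A level of LHX8 far above WT was thus not particular to the uninduced line, a description with no test. NKX2-1 was at 1845, 1378 and 2394 in OE without Dox, against 373, 621 and 664 in WT, with no overlap. Its log2 fold was 1.77 ± 0.39 (adjusted p = 0.016). That call was lost with the replicate number as a block (adjusted p = 0.069), without OE replicate 1 (0.066), without OE replicate 3 (0.072) and without WT replicate 1 (0.065).

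GBX1, a homeobox gene of the ventral telencephalon, was at 57.6, 29.6 and 68.0 in OE without Dox, against 7.57, 5.36 and 8.66 in WT, a log2 fold of 2.63 ± 0.40 (adjusted p = 0.00066). GSX1, a homeobox factor of ganglionic eminence progenitors, was at 72.2, 33.3 and 84.3 in OE without Dox, against 16.1, 15.2 and 18.2 in WT. Its log2 fold of 1.78 ± 0.38 was called (adjusted p = 0.0081), but not without OE replicate 1 (0.053) or OE replicate 3 (0.051). The fifth called member was SOX6, a factor of migrating interneurons, with means of 661.8 in OE without Dox and 373.3 in WT and a log2 fold of 0.76 (adjusted p = 0.047). SOX6 was called without OE replicate 2 but not without any other of the 6 libraries (0.074 to 0.26), nor with the 6 libraries alone (0.082, and 0.12 with the replicate block in them). Leaving out OE replicate 1 or OE replicate 3 brought the count of called MGE regulators to 2. LHX6, which follows NKX2-1 in MGE-derived interneurons, was at 416, 120.3 and 153 in OE without Dox and at 79.5, 85.8 and 111 in WT, all 3 above WT, and did not pass the test (log2 fold 1.11 ± 0.55, adjusted p = 0.31).

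Further genes with large rises are of mixed roles. The host genes of the miR-9 precursors, a neural microRNA family, were among the largest rises at 2 loci. MIR9-1HG was at 835, 271 and 694 in OE without Dox, against 33.1, 22.3 and 4.33 in WT, and MIR9-3HG at 1505, 536 and 1336 in OE without Dox, against 71.0, 54.5 and 24.3 in WT. The log2 folds were 5.06 ± 0.78 (adjusted p = 0.0027) and 4.46 ± 0.61 (adjusted p = 0.0012), and OE replicate 2 was the lowest OE library for both. In KO cells MIR9-1HG stood at 351 to 763 and MIR9-3HG at 1069 to 1535. In OE with Dox they stood at 8.3 to 71.6 and at 12.0 to 69.7. MIR9-1HG was not called with the replicate block in the 6 libraries alone (adjusted p = 0.088). The library kit does not mark strand, so reads of these hosts and of antisense transcripts over them cannot be told apart. The host transcripts were counted here, and the mature microRNA was not measured. Both loci carry the same mature miR-9-5p in RefSeq (GRCh38.p14), at chr1:156420392-156420414 on the minus strand and chr15:89368032-89368054 on the plus strand, shown with its seed, bases 2 to 8, in capitals.
hsa-miR-9-5p: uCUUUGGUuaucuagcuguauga

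VAX1, a homeobox gene of the ventral anterior forebrain, was at 288, 472 and 382 in OE without Dox, against 154, 32.2 and 22.5 in WT (log2 fold 2.92 ± 0.53, adjusted p = 0.0055, and 0.11 with the 6 libraries alone, or 0.21 with the replicate block in them). LMO1, a LIM-only protein, was at 302, 242 and 341 in OE without Dox, against 52.1, 54.5 and 58.0 in WT, and RORB, a nuclear receptor, at 234, 278 and 189 in OE without Dox, against 45.4, 31.3 and 26.0 in WT. The log2 folds of LMO1 and RORB were 2.39 and 2.75 (adjusted p = 3.3e-05 and 5.1e-05), and the groups overlapped in neither. DCT, dopachrome tautomerase of the melanin pathway, had a log2 fold of 4.00 ± 0.55 (adjusted p = 0.00083) with 294, 180.4 and 313 in OE without Dox, against 17.0, 31.3 and 6.06 in WT. MITF, the pigment cell regulator, averaged 40.56 in OE without Dox and 9.672 in WT (log2 fold 1.92, adjusted p = 0.019) and was not called without OE replicate 1 (0.12) or WT replicate 3 (0.092). It was the only called rise among 8 tested neural crest genes (12.5%, beside 3.55% of all tested genes). The median log2 fold of that list was -1.39. NGFR of that list, a neurotrophin receptor, was called lower (log2 fold -1.67, adjusted p = 0.034), and without any 1 of OE replicate 1, OE replicate 3 and the 3 WT replicates it was not (0.054 to 0.14). PAX3, ETS1 and ERBB3 had log2 folds of -2.95, -2.34 and -2.01 and did not pass the test, and SOX10 was at 0 in all 6 libraries.

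**Figure D1:**
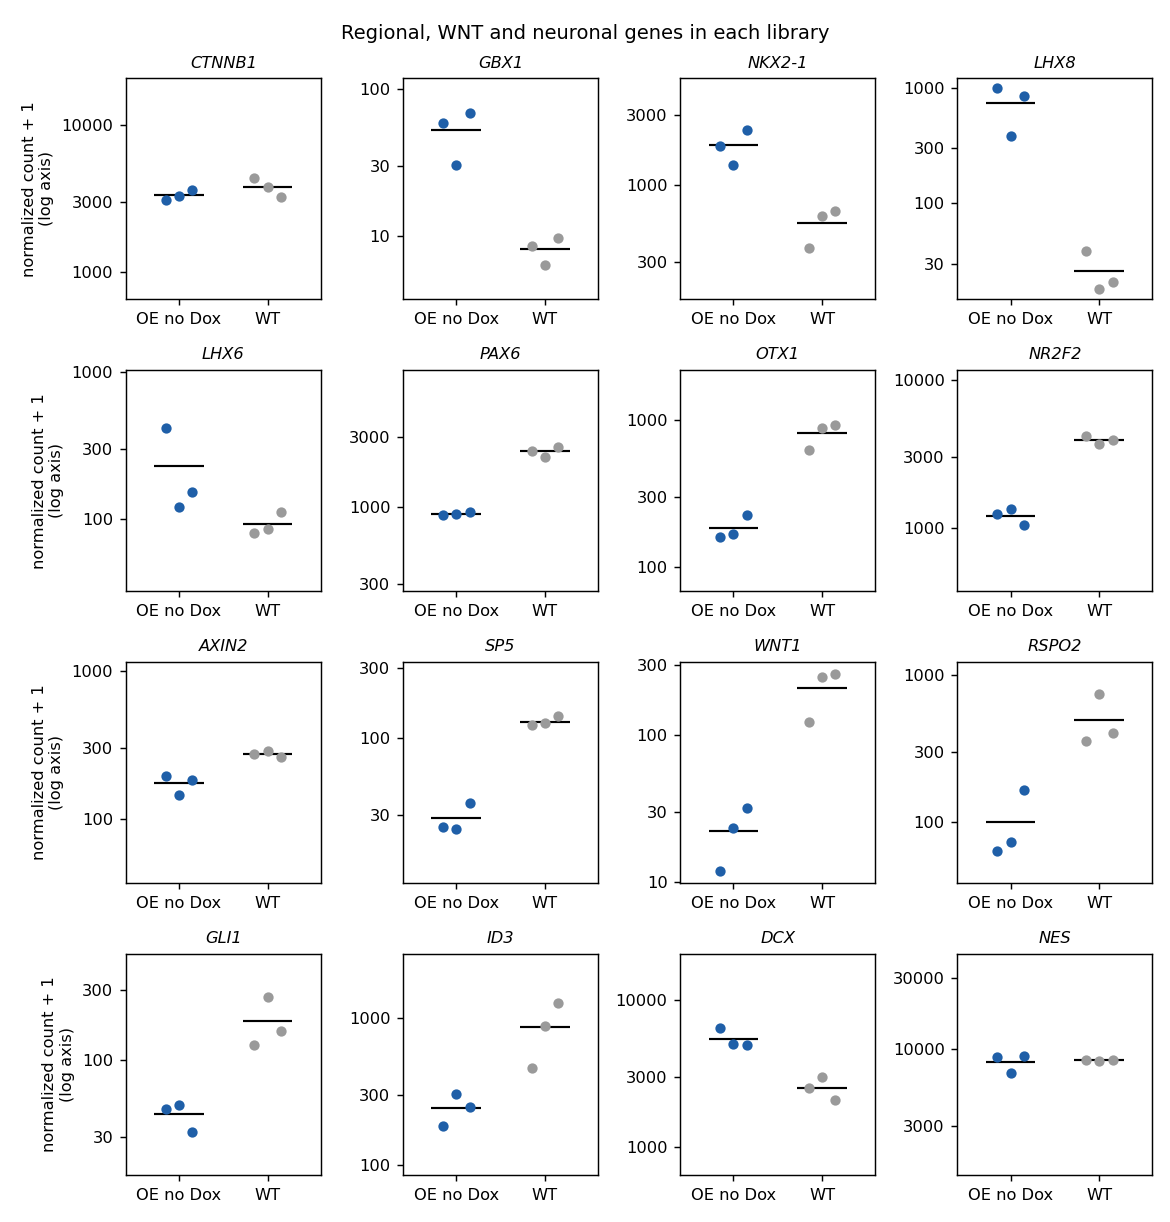
Normalized count plus 1 on log axes for 16 genes, with 1 point per library, OE without Dox on the left (blue) and WT on the right (grey), and a bar at each group mean (n = 3 each). GBX1, NKX2-1, LHX8 and DCX stand higher in every OE library than in any WT library, PAX6, OTX1, NR2F2, SP5, WNT1, RSPO2 and GLI1 lower, and CTNNB1 and NES overlap.

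Some dorsal forebrain genes were lower in the uninduced line. Of 23 tested genes of the dorsal telencephalon and hem, 7 fell (30.4%, beside 2.44% of all tested genes) and none rose (median log2 fold -0.27). The other members lay on both sides of 0, such as DMRTA2 and TTR at 1.08 and 1.07. Without WT replicate 1, 6 fell and 2 rose. The 7 were PAX6, OTX1, LHX5, GDF7, WNT3A, WNT2B and RSPO2. The lists share members, so WNT3A, WNT2B and RSPO2 are counted again among the WNT genes below, and GDF7 among the BMP genes. Without OE replicate 1 or without WT replicate 3 the count was 4. PAX6, a regulator of cortical and other neural progenitors, was at 889, 903 and 924 in OE without Dox, against 2431, 2186 and 2592 in WT. The 3 libraries of each group lay close together and far from the other group, and the log2 fold was -1.40 ± 0.34 (adjusted p = 0.025). In the shared model the spread also includes KO and OE with Dox, and the PAX6 call was lost when any of 5 of the 6 libraries was left out (adjusted p of 0.092 without OE replicate 1, 0.059 without OE replicate 2, 0.074 without OE replicate 3, 0.075 without WT replicate 1 and 0.095 without WT replicate 3).

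OTX1, a homeobox gene of forebrain and midbrain, was at 160.0, 167 and 225 in OE without Dox, against 620.1, 884 and 921 in WT, a log2 fold of -2.12 ± 0.32 (adjusted p = 0.00088). NR2F2, a nuclear receptor of the caudal ganglionic eminence, was at 1228, 1329 and 1038 in OE without Dox, against 4164, 3712 and 3952 in WT, a log2 fold of -1.72 ± 0.35 (adjusted p = 0.0093). PROX1, a homeobox factor of caudal-type interneurons, was at 124, 156 and 71.6 in OE without Dox, against 287, 276 and 249 in WT, a log2 fold of -1.27 ± 0.24 (adjusted p = 0.0032). NR2F2 and PROX1 were 2 of 5 tested genes of the caudal ganglionic eminence (40%, beside 2.44% of all tested genes), and no gene of that list rose. Beyond these lists, BARHL2, a diencephalic homeobox gene, was at 7.32, 4.63 and 12.7 in OE without Dox, against 91.8, 172 and 62.4 in WT (log2 fold -3.55 ± 0.48, adjusted p = 0.0002). FOXB1, a forkhead gene of the hypothalamus and brainstem, was at 28.3, 58.3 and 10.9 in OE without Dox, against 127, 337 and 275 in WT (log2 fold -3.06 ± 0.49, adjusted p = 0.0015). In bulk RNA, fewer cells of a type and less RNA per cell cannot be told apart.

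Every WNT ligand gene that passed the test was lower. Of 31 tested ligands, receptors and modulators, 11 fell (35.5%) and 3 rose (9.7%), beside 2.44% and 3.55% of all tested genes. The median log2 fold was -0.82. WNT1 was at 11.0, 22.2 and 30.8 in OE without Dox, against 121, 248 and 256 in WT. WNT10B, which lies next to WNT1 on chromosome 12, was at 5.49, 11.1 and 15.4 in OE without Dox, against 64.4, 109 and 185 in WT. WNT3A was at 5.49, 13.0 and 27.2 in OE without Dox, against 67.2, 131 and 158 in WT. In all 3 ligand genes OE replicate 1 was the lowest of the 6 libraries, no OE library reached the lowest WT library, and the log2 folds were -3.26, -3.34 and -3.04 (SE 0.60, 0.44 and 0.59, adjusted p = 0.0032, 0.00016 and 0.0044).

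WNT4 was at 30.2, 23.1 and 33.5 in OE without Dox, against 199, 332 and 98.8 in WT (log2 fold -2.66 ± 0.45, adjusted p = 0.0018). RSPO2, a secreted protein that amplifies WNT signals, was at 63.1, 73.1 and 164 in OE without Dox, against 354, 740.0 and 401 in WT (log2 fold -2.36 ± 0.37, adjusted p = 0.00092). The other lower members were WNT2B, WNT7B, RSPO1, the receptor gene FZD9 and the secreted inhibitors SFRP1 and SFRP2, with log2 folds between -1.90 and -0.82. WNT7B was not called with any 1 library left out (adjusted p of 0.058 to 0.16), and RSPO1 and SFRP1 were lost with some left out, without OE replicate 1 among them (0.078 and 0.14). The 3 members that rose were 2 receptors and 1 secreted antagonist. FZD5 was at 2625, 2451 and 3031 in OE without Dox, against 735, 303 and 142 in WT, FZD8 at 523, 746 and 936 in OE without Dox, against 333, 109.9 and 84.0 in WT, and FRZB, the antagonist, at 860.5, 545 and 817 in OE without Dox, against 154, 224 and 139 in WT. Their log2 folds were 3.08, 2.29 and 2.1 (adjusted p = 0.0012, 0.0048 and 2.5e-05). In KO cells FZD5 stood at 2480 to 4077 and FZD8 at 437 to 852. WT replicate 1 was the highest WT library for both receptors, and in a fit of the 6 libraries alone FZD5 (adjusted p = 0.055) and FZD8 (0.085) were not called, nor with the replicate block in those 6 (0.13 and 0.23).

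Feedback targets, listed here as genes that WNT signalling can switch on, were lower as well where they passed the test. Of 16 tested, 8 were lower (50%, beside 2.44% of all tested genes) and none higher, with a median log2 fold of -0.84. SP5, a transcription factor gene, was at 23.8, 23.1 and 35.4 in OE without Dox, against 120.2, 124 and 139 in WT. AXIN2, a scaffold of the destruction complex, was at 193, 144 and 181 in OE without Dox, against 273, 289 and 262 in WT. NOTUM, a secreted enzyme that inactivates WNT ligands, was at 2.74, 2.78 and 2.72 in OE without Dox, against 12.3, 13.4 and 13.9 in WT, at 9 reads in all over the 3 OE libraries and 44 over the 3 WT libraries. None of these groups overlapped, and the log2 folds were -2.20 ± 0.29, -0.67 ± 0.15 and -1.92 ± 0.32 (adjusted p = 0.00017, 0.013 and 0.0012). AXIN2 was not called without OE replicate 2 (adjusted p = 0.06).

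TNFRSF19, a receptor of the tumour necrosis factor family, was at 119.8, 143 and 131 in OE without Dox, against 392, 521 and 262 in WT (log2 fold -1.52 ± 0.26, adjusted p = 0.0018). APCDD1, a membrane inhibitor of WNT signals, was at 149, 163 and 139.6 in OE without Dox, against 339, 1847 and 887 in WT (log2 fold -2.44 ± 0.45, adjusted p = 0.0063, and 0.1 with the 6 libraries alone, or 0.13 with the replicate block in them). Its OE libraries lay within a narrow band while the WT libraries spread widely, from replicate 1 as the lowest to replicate 2 as the highest. LEF1, ZNRF3 and CCND1 also fell, by 0.93, 0.83 and 0.89 on the log2 scale. None of these 3 was called without OE replicate 1 (adjusted p of 0.052, 0.058 and 0.11). ZNRF3 was not called without WT replicate 1 (0.053), nor CCND1 without OE replicate 3 (0.11), WT replicate 1 (0.12) or WT replicate 3 (0.065). Without OE replicate 1 the count of lower feedback targets was 5. With Dox, where CTNNB1 was high, SP5 stood at 1977 to 2972, AXIN2 at 3044 to 3374 and NOTUM at 1685 to 2688. In KO cells SP5 stood at 2.83 to 8.98, AXIN2 at 77.5 to 112 and NOTUM at 1.89 to 6.47. OE without Dox was between KO and WT for SP5 and AXIN2, while its NOTUM values lay among those of KO. These side values come from the same model and the same WT libraries, and no test was made on them here.

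The SP5 promoter is shown because it was the only one of the 4 lower feedback targets with a promoter in the RefSeq table (GRCh38.p14) that held the TCF core. The search was for CTTTGA and its reverse complement TCAAAG, counted on both strands over the 250 bases before the gene start, with no overlaps between the 3 matches found, which are in capitals. Of 35114 promoters of that length, 11.212% held at least 1 such core. The stretch is chr2:170715087-170715336 on the plus strand.
SP5: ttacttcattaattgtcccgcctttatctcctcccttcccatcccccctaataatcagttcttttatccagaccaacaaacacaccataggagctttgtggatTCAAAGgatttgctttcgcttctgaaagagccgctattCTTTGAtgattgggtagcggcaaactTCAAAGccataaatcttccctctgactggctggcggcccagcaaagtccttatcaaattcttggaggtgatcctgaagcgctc

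Members of the other patterning pathways fell too. Of 22 tested BMP and TGF-beta genes, 8 fell (36.4%, beside 2.44% of all tested genes) and none rose (median log2 fold -1.22). The count was 4 without OE replicate 1 and without WT replicate 3, and 5 without WT replicate 2. FST, a secreted antagonist of activins and BMPs, was at 30.2, 65.7 and 28.1 in OE without Dox, against 201, 188 and 152 in WT. BAMBI, a pseudoreceptor that dampens BMP and TGF-beta signals, was at 27.4, 40.7 and 30.8 in OE without Dox, against 184, 86.7 and 136 in WT. ID2, a direct BMP target in many cells, was at 147, 217 and 169.5 in OE without Dox, against 295, 535 and 607 in WT. Every OE library was below every WT library for the 3 genes, with log2 folds of -2.19, -1.96 and -1.38 (SE 0.40, 0.28 and 0.27, adjusted p = 0.0031, 0.00039 and 0.0053). The list holds antagonists (FST, CHRD, BAMBI, SMAD6) as well as ligands (BMP5, GDF7) and targets (ID2, ID3) among those that fell.

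Of 16 tested SHH pathway genes, 3 fell (18.75%, beside 2.44% of all tested genes) and none rose (median log2 fold -0.39). The 3 were GLI1, GLI2 and PTCH1. GLI1, a target and effector of the pathway, was at 45.7, 49.0 and 31.7 in OE without Dox, against 126, 268 and 157 in WT (log2 fold -2.05 ± 0.44, adjusted p = 0.0097). PTCH1, the SHH receptor and a feedback target, was at 1325, 1699.9 and 1049 in OE without Dox, against 2201, 3254 and 2570.2 in WT (log2 fold -0.99 ± 0.23, adjusted p = 0.017). PTCH1 was not called without OE replicate 1 (adjusted p = 0.064), OE replicate 3 (0.082), WT replicate 2 (0.07) or WT replicate 3 (0.054). GLI2, which averaged 241.8 in OE without Dox and 562.4 in WT (log2 fold -1.26, adjusted p = 0.017), was not called with the replicate block in the 6 libraries alone (0.065), nor without OE replicate 1 (0.1), WT replicate 1 (0.064) or WT replicate 3 (0.055). GLI1 was the lone called member without OE replicate 1 and without WT replicate 3. These pathway readouts were lower in the same libraries in which NKX2-1 was higher.

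**Figure D2:**
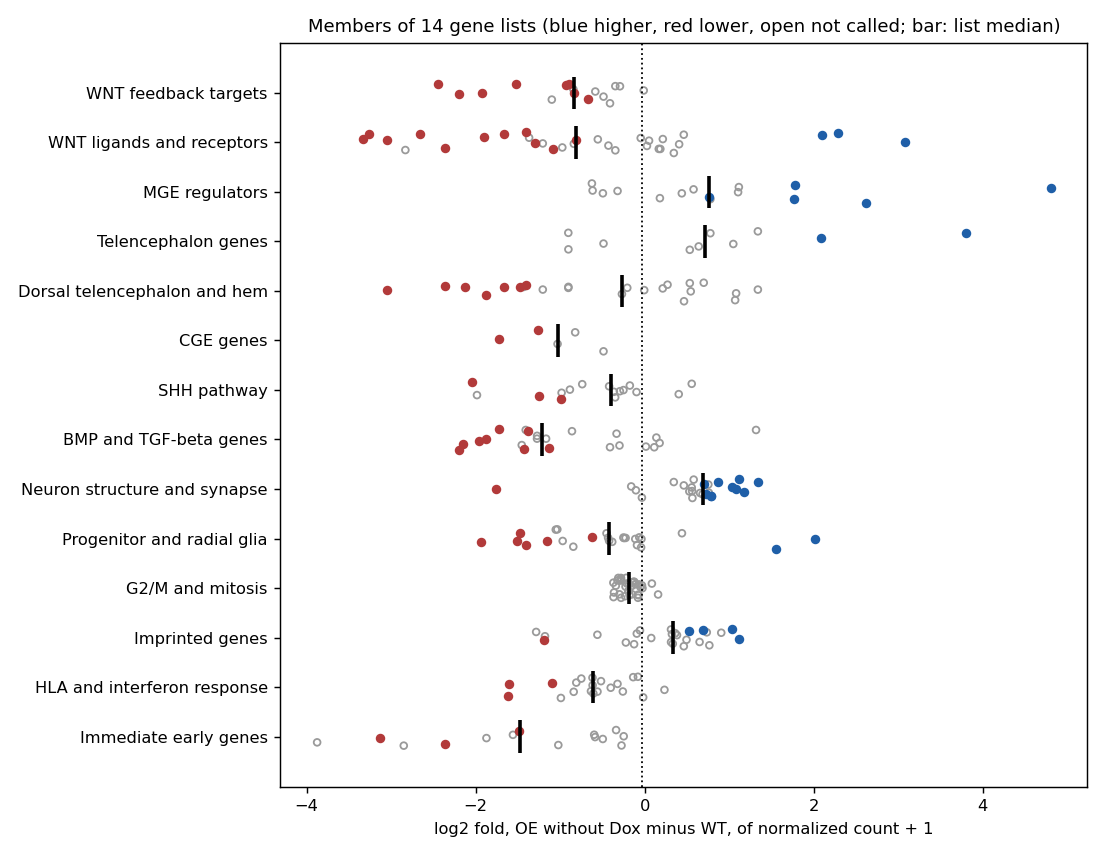
Log2 fold of OE without Dox over WT for every tested member of the main gene lists, with 1 point per gene, blue where higher, red where lower and open where not called, a bar at each list's median and a dotted line at the median of all genes. WNT feedback targets and BMP and TGF-beta genes lie mostly below 0, with medians of -0.84 and -1.22, and MGE regulators and neuron genes mostly above it, with medians of 0.76 and 0.69.

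Among neuronal genes that passed the test, all but 1 were higher. Of 25 tested genes of neuron structure and synapse, 10 rose (40%) and 1 fell (4%), beside 3.55% and 2.44% of all tested genes. The gene that fell was the splicing factor gene RBFOX1, and the median log2 fold was 0.69. Of the 25, 18 had all OE libraries above all WT libraries, beside 11.7% of all tested genes. DCX, a microtubule protein of young neurons, was at 6362, 5027 and 4897 in OE without Dox, against 2511, 2966 and 2063 in WT. KO cells stood at 5531 to 6833 for DCX, and OE with Dox at 733 to 954. STMN2, a regulator of microtubules in growing axons, was at 3169, 3844 and 2915 in OE without Dox, against 1846, 1943 and 1633 in WT, and RTN1, a reticulon of neurons, at 721, 813 and 858 in OE without Dox, against 288, 323 and 331 in WT. INA, a neuronal intermediate filament, was at 1480.5, 1331 and 1498 in OE without Dox, against 671, 736 and 690.4 in WT. The log2 folds were 1.12, 0.87, 1.34 and 1.04 (SE 0.15, 0.13, 0.17 and 0.13, adjusted p = 0.00017, 0.00081, 0.00013 and 0.00011), and each call held with any 1 library left out. With the replicate number as a block, 16 neuron genes were called higher. Without OE replicate 1 the count was 5 and without WT replicate 3 it was 6.

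Progenitor genes moved in both directions. Of 25 tested progenitor and radial glia genes, 2 rose (8%) and 6 fell (24%), beside 3.55% and 2.44% of all tested genes (median log2 fold -0.42). SOX9, a progenitor factor, was at 1069.9, 824 and 1267 in OE without Dox, against 319, 215 and 243 in WT, and HES5, a NOTCH target, at 1298, 1314 and 1845 in OE without Dox, against 523, 468 and 506 in WT. FABP7, a fatty acid binding protein of radial glia, was at 286, 461 and 478 in OE without Dox, against 882, 1148 and 1358 in WT, and ZIC2, a zinc finger factor of dorsal and early neural cells, at 257, 312 and 447 in OE without Dox, against 790.5, 716 and 710.3 in WT. The log2 folds were 2.02, 1.55, -1.48 and -1.16 (adjusted p = 7.2e-05, 0.0074, 0.0017 and 0.0039), with no overlap between the groups in any of the 4. The general markers overlapped: SOX2 was at 2568, 3105 and 3160.2 in OE without Dox and at 3081, 3171 and 2944 in WT (adjusted p = 0.85), and NES was at 8735, 6826 and 8909 in OE without Dox and at 8328, 8284 and 8328 in WT (adjusted p = 0.95). The number of lower members was 2 without OE replicate 1, 3 without WT replicate 3 and 4 without OE replicate 2 or WT replicate 1.

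Proliferation genes showed no call. None of 35 tested G2/M genes passed the test in either direction, 2 of them had an unadjusted p under 0.05, and edgeR and DESeq2 called 0 and 0. None of 31 tested G1/S and replication genes passed in limma or edgeR, 1 had an unadjusted p under 0.05, and DESeq2 called 1. The medians were -0.19 and -0.24 on the log2 scale, with summed G2/M levels of 22840 to 29850 in OE without Dox and 24710 to 35030 in WT. Among interneuron genes, ERBB4, a neuregulin receptor, was at 165, 201 and 141 in OE without Dox, against 517, 963 and 599 in WT (log2 fold -1.99 ± 0.24, adjusted p = 8.5e-05). Of 15 tested GABAergic genes 1 rose (6.7%), GAD1, and 2 fell (13.3%), ERBB4 and SST, beside 3.55% and 2.44% of all tested genes. The calls of GAD1 (adjusted p = 0.033) and SST (0.044) were lost with the replicate number as a block (0.067 and 0.072, and 0.094 and 0.29 with that block in the 6 libraries alone). GAD1 was also not called without OE replicate 1 or any of the 3 WT replicates in turn, where its adjusted p reached 0.13, nor was SST without OE replicate 1, OE replicate 3, WT replicate 2 or WT replicate 3, where it reached 0.18.

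Some of the largest differences were in genes at or near 0 reads in OE without Dox. CAT, the gene of the peroxide-degrading enzyme catalase, had no read in OE without Dox, none in OE with Dox and none in KO, against 50.2, 78.7 and 96.2 normalized counts in WT. With 3 reads allowed per library at a count of 0, CAT was at least 27.3-fold lower in OE without Dox, and its adjusted p was 1.3e-06. ZNF229, a KRAB-type zinc finger gene, was at 0.914, 0.925 and 0 in OE without Dox, against 67.2, 78.7 and 59.8 in WT. ZNF542P, a zinc finger pseudogene, was at 1.83, 0.925 and 0 in OE without Dox, against 73.8, 59.0 and 77.1 in WT. ZNF354C, a further zinc finger gene, was at 11.0, 0.925 and 1.81 in OE without Dox, against 149, 202 and 178 in WT. The adjusted p-values were 1e-05, 0.00012 and 2.5e-05, and all 4 genes were called with any 1 library left out.

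The other groups shared the low levels of OE without Dox. In OE with Dox, ZNF229 had no read, ZNF542P stood at 0 to 3.72 and ZNF354C at 1.84 to 7.44. In KO, ZNF229 stood at 0 to 2.83, ZNF542P at 0 to 6.29 and ZNF354C at 1.80 to 6.61. WT stood apart from all 3 other groups for these genes, a description with no test of its own. ZNF558 was at 16.5, 7.40 and 0 in OE without Dox, against 260.3, 271 and 246 in WT. Its call (adjusted p = 0.032) was lost with the replicate block in the 6 libraries alone (0.067), and without OE replicate 1 (0.052), OE replicate 3 (0.12), WT replicate 1 (0.089), WT replicate 2 (0.064) or WT replicate 3 (0.099). CBLN2, a secreted synaptic organizer, ran the other way, at 61.3, 47.2 and 53.5 in OE without Dox, against 1.89, 1.79 and 2.60 in WT (7 reads over the 3 WT libraries). Its log2 fold was 4.15 ± 0.39 (adjusted p = 7.1e-06). CBLN2 stood at 1.84 to 6.46 with Dox and at 45.6 to 126 in KO.

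The promoters of CAT, ZNF229 and ZNF354C are shown because these genes were at or near 0 reads in 1 group and well detected in the other. CAT, ZNF354C and 16 other tested genes were listed as genes whose silencing varies between pluripotent stem cell cultures. Of these 18 genes 2 fell (11.1%) and 3 rose (16.7%), beside 2.44% and 3.55% of all tested genes. Each sequence is the 250 bases before the gene start in RefSeq (GRCh38.p14), 5′ to 3′ on the gene's strand, with every CG dinucleotide in capitals. They lie at chr11:34438684-34438933 (plus strand) for CAT, chr19:44448473-44448722 (minus strand) for ZNF229 and chr5:179060123-179060372 (plus strand) for ZNF354C.
CAT: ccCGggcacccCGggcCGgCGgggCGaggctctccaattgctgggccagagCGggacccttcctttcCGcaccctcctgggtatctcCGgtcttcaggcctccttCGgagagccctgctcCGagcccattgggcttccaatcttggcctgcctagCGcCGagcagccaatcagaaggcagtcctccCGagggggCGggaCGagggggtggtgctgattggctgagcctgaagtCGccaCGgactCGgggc
ZNF229: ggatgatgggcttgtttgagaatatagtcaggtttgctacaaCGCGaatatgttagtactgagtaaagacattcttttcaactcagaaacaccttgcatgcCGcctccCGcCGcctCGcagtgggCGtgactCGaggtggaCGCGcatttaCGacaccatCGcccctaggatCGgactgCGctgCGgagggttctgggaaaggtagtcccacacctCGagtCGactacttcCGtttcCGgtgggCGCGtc
ZNF354C: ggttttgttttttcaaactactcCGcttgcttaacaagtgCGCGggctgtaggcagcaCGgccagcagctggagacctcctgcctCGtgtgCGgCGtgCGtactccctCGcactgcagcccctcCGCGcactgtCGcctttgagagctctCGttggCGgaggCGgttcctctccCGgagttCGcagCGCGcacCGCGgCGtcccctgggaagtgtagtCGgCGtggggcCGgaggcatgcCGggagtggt

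The 3 promoters hold 18, 21 and 26 CG dinucleotides, against a median of 11 over all 35114 promoters of that length. Among all promoters 36.8%, 30.2% and 19.6% hold at least as many, so these counts are common. DNA methylation was not analysed here.

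**Figure D3:**
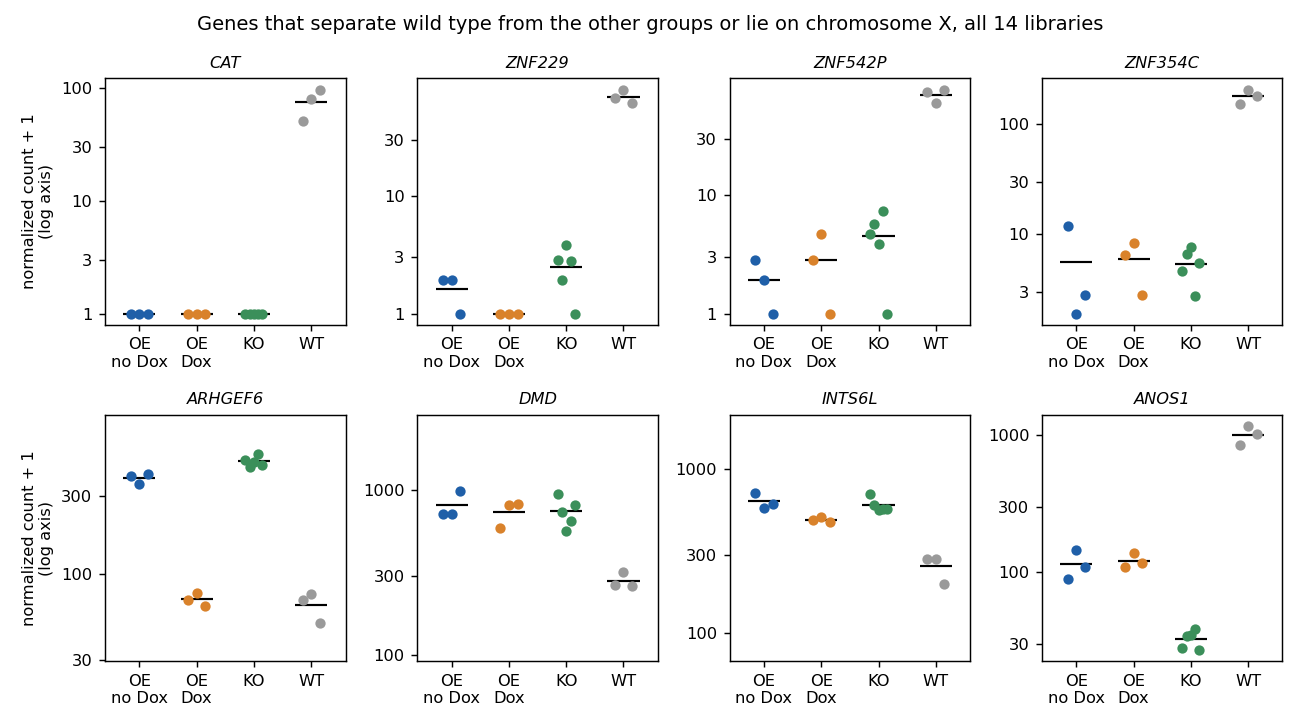
Normalized count plus 1 on log axes in every library of the 4 groups, OE without Dox, OE with Dox, KO and WT from left to right, for genes at or near 0 in 1 group and for genes of chromosome X. CAT has no read outside WT, ZNF229, ZNF542P and ZNF354C stay at 11.0 or below in OE without Dox, and DMD and INTS6L are higher in all 3 other groups than in WT.

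Many of the genes that rose lie on chromosome X. Of 645 tested X genes, 76 rose (11.8%) and 14 fell (2.17%), while of 15113 autosomal genes 483 rose (3.20%) and 371 fell (2.45%). Most of them lie on the distal long arm. Of 285 tested genes at or above 100 Mb, 59 rose (20.7%) and 4 fell, and of 360 below 100 Mb, 17 rose (4.72%) and 10 fell. The window from 130 to 140 Mb had the highest median log2 fold of the 272 windows of 10 Mb with at least 20 tested genes, at 0.68. In it 27 of 57 tested genes rose (47.4%) and 1, the ETS factor gene ELF4, fell, and 49 of the 57 had a log2 fold above 0. The next windows were chromosome X at 100 to 110 Mb and at 120 to 130 Mb, both at 0.32, and chromosome 6 at 20 to 30 Mb, at 0.23. The windows were ranked by this contrast, so their order, like the shares by chromosome, is a description with no test.

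The median log2 level of the 57 genes of that window was 7.16 to 7.29 in OE without Dox, 6.68 to 7.06 in OE with Dox, 7.27 to 7.49 in KO and 6.29 to 6.59 in WT, over the libraries of each group. No WT library reached any library of the other 3 groups. ARHGEF6, a guanine nucleotide exchange factor for Rac and Cdc42, was at 396, 352 and 407 in OE without Dox, against 68.2, 75.1 and 49.4 in WT (log2 fold 2.58 ± 0.16, adjusted p = 9.2e-08), and at 62.7 to 76.2 with Dox, a level within that of WT or next to it. INTS6L, a relative of an Integrator complex subunit, was at 716, 579 and 612 in OE without Dox, against 282, 281 and 198 in WT (log2 fold 1.33 ± 0.15, adjusted p = 3.6e-05).

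IGSF1, a membrane glycoprotein, was at 304, 172 and 209 in OE without Dox, against 66.3, 67.9 and 52.0 in WT (log2 fold 1.83 ± 0.21, adjusted p = 5.6e-05). Outside the window, AFF2, a nuclear factor gene, was at 2182, 1443 and 1546 in OE without Dox, against 572, 513 and 357 in WT (log2 fold 1.84 ± 0.21, adjusted p = 4.8e-05), and DMD, the dystrophin gene, at 718, 719 and 996 in OE without Dox, against 266, 317 and 261 in WT (log2 fold 1.51 ± 0.19, adjusted p = 9.1e-05). ANOS1, an extracellular protein gene on the distal short arm, fell: it was at 87.8, 145 and 108 in OE without Dox, against 850.1, 1157 and 1011 in WT (log2 fold -3.15 ± 0.21, adjusted p = 9.2e-08). None of the 57 window genes, and 3 of the 76 higher X genes, were on the neuron list of 25 tested genes, while 3 of the 10 neuron genes that rose, DCX, SYN1 and L1CAM, lie on X, which holds 645 of the 15874 tested genes.

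**Figure D4:**
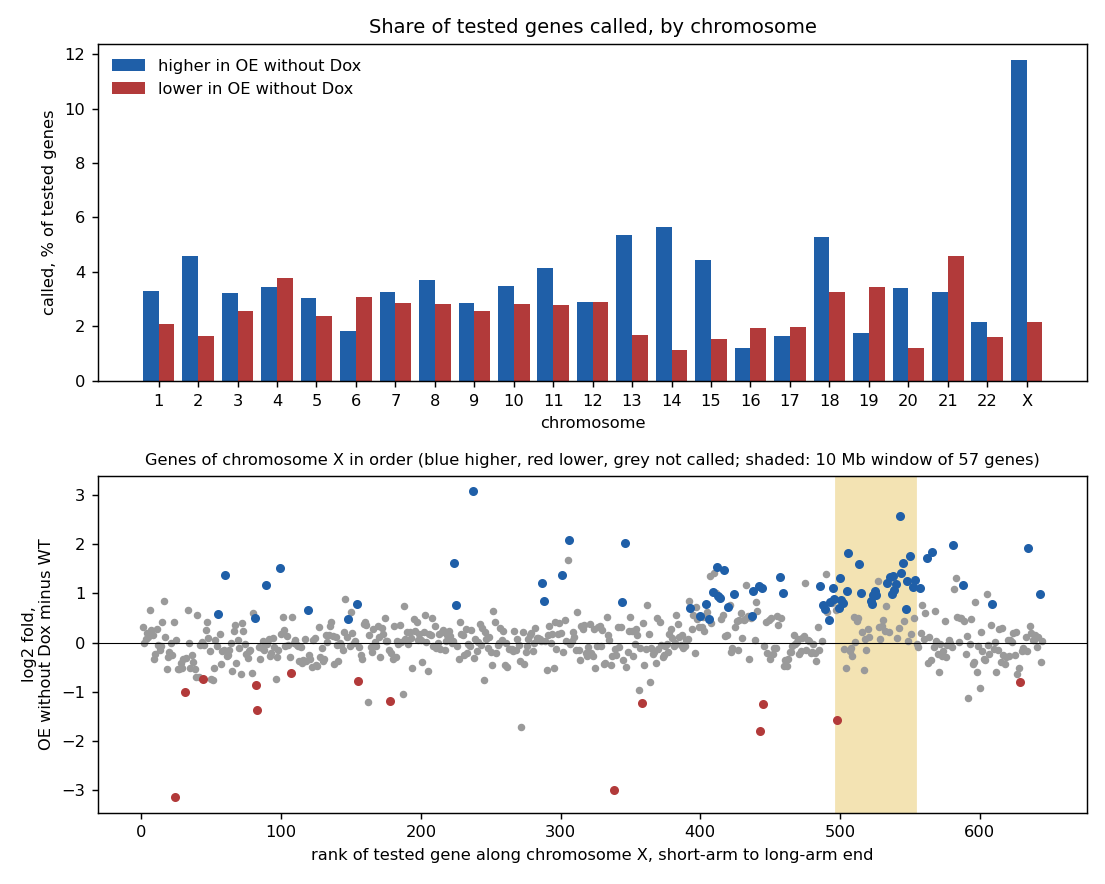
Share of tested genes called higher and lower in OE without Dox by chromosome, and log2 folds of the tested genes of chromosome X in their order along the chromosome. Chromosome X has 11.8% of its genes higher, beside 3.20% of autosomal genes, and the raised stretch is on its distal long arm.

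Of 25 tested imprinted genes, 4 rose (16%) and 1 fell (4%), beside 3.55% and 2.44% of all tested genes, so the share that fell was near the background. Without OE replicate 1, OE replicate 2 or WT replicate 2 the number that rose was 2. NNAT, a proteolipid of the developing brain, was at 11070.4, 11278 and 10729.8 in OE without Dox, against 4556, 5799.6 and 5905 in WT, and BLCAP, in whose intron NNAT lies, at 955, 892 and 842 in OE without Dox, against 555, 606 and 512 in WT. PLAGL1, a zinc finger growth regulator, was at 476, 599 and 506 in OE without Dox, against 1014, 1308 and 1288 in WT. The log2 folds were 1.03, 0.69 and -1.19 (adjusted p = 0.00032, 0.0061 and 8.9e-05). The other higher members were MAGEL2 and NDN. Of 37 tested clustered protocadherin genes, 3 rose (8.1%) and 2 fell (5.4%), beside 3.55% and 2.44% of all tested genes. Among the called genes, PCDHGB6 was at 422, 436 and 448 in OE without Dox, against 214, 207 and 171 in WT. PCDHB5 was at 73.2, 34.2 and 46.2 in OE without Dox, against 163, 263 and 328 in WT. Genes within 1 protocadherin cluster are paralogs, the PCDHG genes share constant exons, and how reads that match several were counted is not given in the sources used here. Of 17 tested genes of the 20q11.21 region, which stem cell cultures often gain, none passed the test. Their median log2 fold was -0.03, 4 had an unadjusted p under 0.05, edgeR called 0 and DESeq2 called 1.

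Stress and immediate early genes that passed the test were all lower. Of 15 tested immediate early genes 3 fell (20%, median log2 fold -1.48). Of 19 genes of the unfolded protein and amino acid response 4 fell (21.05%, median -0.52), beside 2.44% of all tested genes. None of either list rose. KLF4, an early response transcription factor, was at 7.32, 5.55 and 3.63 in OE without Dox, against 61.5, 26.8 and 96.2 in WT (log2 fold -3.13 ± 0.55, adjusted p = 0.0022). GADD45B, a stress-response gene on neither list but among the largest falls, was at 10.1, 9.25 and 11.8 in OE without Dox, against 103, 85.8 and 382 in WT (log2 fold -3.74 ± 0.60, adjusted p = 0.0015). SLC7A11, a cystine transporter, was at 58.5, 36.1 and 49.9 in OE without Dox, against 124, 130.5 and 129.9 in WT (log2 fold -1.42 ± 0.28, adjusted p = 0.0047). Without OE replicate 1, OE replicate 3 or WT replicate 3, 1 gene of each list was called, while without WT replicate 2 the counts were 6 and 7.

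Markers of stem, endothelial, blood and muscle cells were near 0 in both groups, and mesenchymal markers were not. The summed level of the undifferentiated stem cell markers POU5F1, NANOG and TDGF1 was 0 to 6.48 in OE without Dox and 0 to 1.73 in WT. Endothelial and blood markers summed to 1.83 to 10.9 in OE without Dox and to 1.79 to 5.68 in WT, and muscle markers to 0 to 5.49 in OE without Dox and to 2.60 to 6.63 in WT. Mesenchymal markers summed to 103 to 1255 in OE without Dox and to 267 to 1457 in WT. COL3A1, a fibrillar collagen, was at 35.7, 812 and 69.8 in OE without Dox and at 15.1, 1023 and 91.0 in WT, highest in replicate 2 of both groups. Choroid plexus markers summed to 9.14 to 255 in OE without Dox and to 9.83 to 42.6 in WT. The 7 MGE markers summed to 3534 to 6282 in OE without Dox and to 1978 to 2418 in WT, so the labelled identity was present in both groups at different levels. The part of these other cell types in the differences was not tested.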

How the data were processed

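RNA was measured by bulk RNA-seq, with libraries built from 500 ng of total RNA with a NEBNext Ultra kit, per the labels' protocols. Per the submitters' processing notes, the tools were TopHat2 2.1.1, R 3.4.0, HTSeq 0.9.1 and DESeq2, with the build hg38. The order of steps, the annotation and the strand setting are not given in the sources used here. The deposited signal is a gene count that the authors divided by 1 size factor per library. Whole reads were recovered from 100.0% of values (tolerance 0.01), and 1 read was worth 0.866 to 0.947, so a count of 0 allows 3 reads, or 2.60 to 2.84. These floors cover counting error only. Ensembl IDs were named from GENCODE 44, which named 56948 of 58051.

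limma 3.58.1 (R 4.3.3, trend and robust) was fitted to log2(value + 1) in all 14 libraries as 4 groups, with 10 residual degrees of freedom, and all tests were two-sided. DESeq2 1.42.0 and edgeR 4.0.16, run on the recovered reads, other pseudocounts, filters, scalings and weights, the 6 libraries alone, a replicate block and leaving out each library were alternatives. Alternatives for the X window were chosen after seeing the data. Summaries used pandas 2.3.3, matplotlib 3.10.9 and numpy 2.4.6 under Python 3.11.15.

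Replicate numbers come from the titles. Deviations from the group mean correlated at 0.24, 0.18 and 0.33 for same-numbered libraries and at -0.27 to -0.04 for other pairs. Deviations within a group sum to 0, so positive values for same-numbered pairs partly force negative ones elsewhere. Same-numbered libraries thus varied together to a degree, and the labels do not say what they share. The main fit took the libraries as unpaired. Blocked values, from all 14 libraries or from the 6 alone, are printed where they change the call of a gene given with its values.

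Members and lists were chosen with earlier results of these data known. Genes were named by rule: CTNNB1, the 15 largest rises and falls among called genes whose groups do not overlap and whose mean is 100 or more, up to 4 called members of each list (or the 2 highest where none was called), called genes with at most 3 reads per library in 1 group and a mean of at least 50, and the cell type markers. The printed genes are a selection of these made after values were seen, and some genes are not reported here. AXIN2, ID3, INTS6L, IGSF1, AFF2, DMD, ELF4 and some further called members of the lists fall outside the rule and were chosen after their values were seen.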

Additional observations from a re-analysis of the deposited data

How the results depend on the processing

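No called gene changed direction under any alternative run. The counts of higher and lower genes were 564 and 387, and lay within 1.5 times of these in every alternative other than leaving out a library, apart from the lower genes with DESeq2 (582) and with a replicate block in the 6 libraries alone (711). edgeR called 621 and 423, DESeq2 799 higher, the replicate block 685 and 512, and the block in the 6 libraries alone 840 higher. Leaving out 1 library gave 266 to 495 higher and 157 to 357 lower genes, with changes over 1.5 times without OE replicate 1, OE replicate 3 or WT replicate 3, where fewer libraries were fitted. Beside the calls already given as lost with the replicate number as a block (NKX2-1, GAD1 and SST), MYT1 (adjusted p = 0.064) and MYT1L (0.058) were among those lost. With no filter, NKX2-1 (0.059), PAX6 (0.078) and ZNF558 (0.081) were among the genes not called, as was NGFR. ZNF558 was also not called with a pseudocount of 0.5 or with sample weights. The median log2 fold of the X window, 0.68, was 0.85 with a minimum of 50 and 0.61 to 0.77 with 1 library left out. The fold of CTNNB1 ranged over -0.29 to -0.07 with 1 library left out. The uncalled folds of NES and SOX2 turned positive without OE replicate 2 (0.086) and without OE replicate 1 (0.032), with ranges of -0.11 to 0.086 and -0.12 to 0.032. Of the list counts, 125 of 1228 moved by over 1.5 times under other settings and 120 of 528 with 1 library left out. With 3 libraries a group and 5402330 to 5622830 reads each, genes of a few reads are limited by counting.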

Other observations

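Of 33 tested axon guidance and Eph genes, 6 rose (18.2%) and 1 fell (median log2 fold 0.10), and of 17 proneural factors 3 rose (17.6%), INSM2, MYT1 and MYT1L, and none fell (median 0.22), beside 3.55% higher and 2.44% lower over all tested genes. MYT1L was not called with any 1 of the 6 libraries left out (adjusted p of 0.051 to 0.22). Of 18 hypothalamic and diencephalic genes, 2 rose (11.1%), VAX1 and POMC, and 4 fell (22.2%), BARHL1, BARHL2, FOXD1 and TCF7L2 (median -0.36). Of 15 NOTCH ligands, receptors and modulators, 1 rose (6.7%), NOTCH1, and 2 fell (13.3%), the ligand genes JAG1 and JAG2. Of 20 HLA and interferon response genes, 3 fell (15%) and none rose (median -0.61). No gene passed the limma test among 19 hypoxia and glycolysis genes, where 0 had an unadjusted p under 0.05 and edgeR and DESeq2 called 0. Their summed levels spread widely, over 11560 to 41650 in OE without Dox and 14000 to 32800 in WT. The median log2 fold of that list was 0.31, and -0.19 to 0.79 with 1 library left out, so a difference could be missed. Among 30 cytosolic ribosome genes limma, edgeR and DESeq2 called 0, with 1 unadjusted p under 0.05, and among 13 mitochondrially encoded genes all 3 tools called 0, with 3 unadjusted p under 0.05.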
